A study of Mus musculus with 6 samples.

Results

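Matrix proteases and their inhibitors were examined in quiescent muscle stem cells (qMuSCs) of WT and cD2KO mice. The 10 genes were chosen by name among the 31053 genes of the count table, and are the matrix metalloproteases Mmp2, Mmp9 and Mmp14, the Adamts proteases Adamts1, Adamts5 and Adamts9, and the tissue inhibitors Timp1, Timp2, Timp3 and Timp4. They were chosen by family and not by a threshold on their values, though with earlier results of these data known. RNA-seq was performed on cells sorted by FACS for nuclear GFP under Pax7, the transcription factor characteristic of these cells, from hindlimb muscles of mice 3 to 4 months old. The WT mice, c124, c129 and c130, were Pax7nGFP/+ and Dio2Fl/Fl and carried no Cre (Pax7+/+ in the labels). The cD2KO mice, fl125, fl126 and fl128, were also Pax7nGFP/+ and Dio2Fl/Fl, and carried Pax7-CreERT2/+ in addition. All 6 mice received tamoxifen, so that the groups differ by label in 2 ways, the Cre allele and the deletion of Dio2, the gene of the deiodinase D2. The deletion could not be checked here, since Dio2 had 21, 5 and 10 counts in WT and 15, 5 and 1 counts in cD2KO, which overlap. Recombination is limited to cells with Pax7 activity, reads of Dio2 are summed over all of its exons, floxed or not, and each library came from 1 mouse.

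Stem cells at rest lie between the muscle fiber and its basal lamina, and the matrix around them is remodeled when muscle is injured. Matrix metalloproteases and Adamts proteases are zinc enzymes made as inactive precursors that cleave collagens, gelatin and proteoglycans. Timp proteins bind the active site of matrix metalloproteases and block it, and Timp2 also takes part in the activation of pro-Mmp2 by membrane-bound Mmp14. Much of the activity of these enzymes is set after translation, and mRNA levels alone do not report it.

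The libraries held 2184073 to 3897787 counts. CPM are counts scaled to a library of 1000000, after each library size was multiplied by its TMM factor. On this scale 3 counts, taken here as the limit that a count of 0 allows, stand for 0.768 to 1.36 CPM. This limit and the counts cover counting error only. The library of cD2KO mouse fl125 stood apart from the rest, with 222.8 CPM summed over 14 macrophage and general leukocyte markers against 2095 to 7401 CPM in the other mice. Muscle stem cell markers were present in every library, with 1554 to 2469 CPM summed over 14 genes, and Pax7 itself lay between 211.5 and 687 CPM. Markers of other cells were present too, with sums of 5508 to 16364 CPM for 10 mural, 5015 to 7821 CPM for 6 Schwann cell, 2828 to 7528 CPM for 11 fibroadipogenic, 1916 to 6573 CPM for 10 muscle fiber, 204 to 1101 CPM for 5 tenocyte and 263 to 448 CPM for 12 endothelial genes. A difference in the number of cells of a type and a difference in RNA per cell cannot be told apart in such bulk libraries.

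Of the 10 genes, all of which passed the minimum on expression, 0 rose and 0 fell in cD2KO qMuSCs when edgeR's quasi-likelihood test was applied at an unadjusted p of 0.05. Among all 11633 genes tested, 12.0% passed this threshold, 5.34% higher and 6.62% lower, and 0.00860% (1 gene) had a Benjamini-Hochberg adjusted p under 0.05. DESeq2's Wald test and limma voom each called 1 of the 10 genes lower, Mmp9, and 0 higher. The median log2 fold change of the 10 genes was -0.10, beside -0.02 for all genes tested, with 3 above 0 and 7 below. Mmp9 was also the only one of the 10 whose groups of mice did not overlap, which was the case for 18.1% of all genes tested.

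The levels of the 10 genes ranged widely. Per kilobase of annotated exon, which allows levels to be set side by side between genes if reads lie along the whole transcript, Timp2 and Timp3 were the highest in WT qMuSCs, at 228 and 143 CPM per kb. Mmp2, Mmp14 and Adamts1 followed, at 29.9, 28.5 and 22.85 CPM per kb. Timp4 was at 11.0, Adamts5 at 8.19, Mmp9 at 7.715, Timp1 at 5.83 and Adamts9 at 1.205 CPM per kb. In cD2KO qMuSCs the levels were 214 and 140 CPM per kb for Timp2 and Timp3, 25.6, 23.6 and 16.8 for Mmp2, Mmp14 and Adamts1, 12.8 and 8.85 for Timp4 and Adamts5, and 5.32, 3.08 and 1.40 for Timp1, Mmp9 and Adamts9. The order was therefore alike in both groups except that Timp1 stood above Mmp9 in cD2KO. In WT the ranges over mice of Mmp2, Mmp14 and Adamts1 overlapped, as did those of Timp4, Adamts5, Mmp9 and Timp1. In cD2KO Adamts1 lay wholly below Mmp14, and Mmp9 wholly below Timp4 and Adamts5, whereas Mmp2 and Mmp14, Adamts1 and Timp4, Timp4 and Adamts5, Adamts5 and Timp1, Timp1 and Mmp9, and Mmp9 and Adamts9 overlapped. No test between genes was made.

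**Figure D1:**
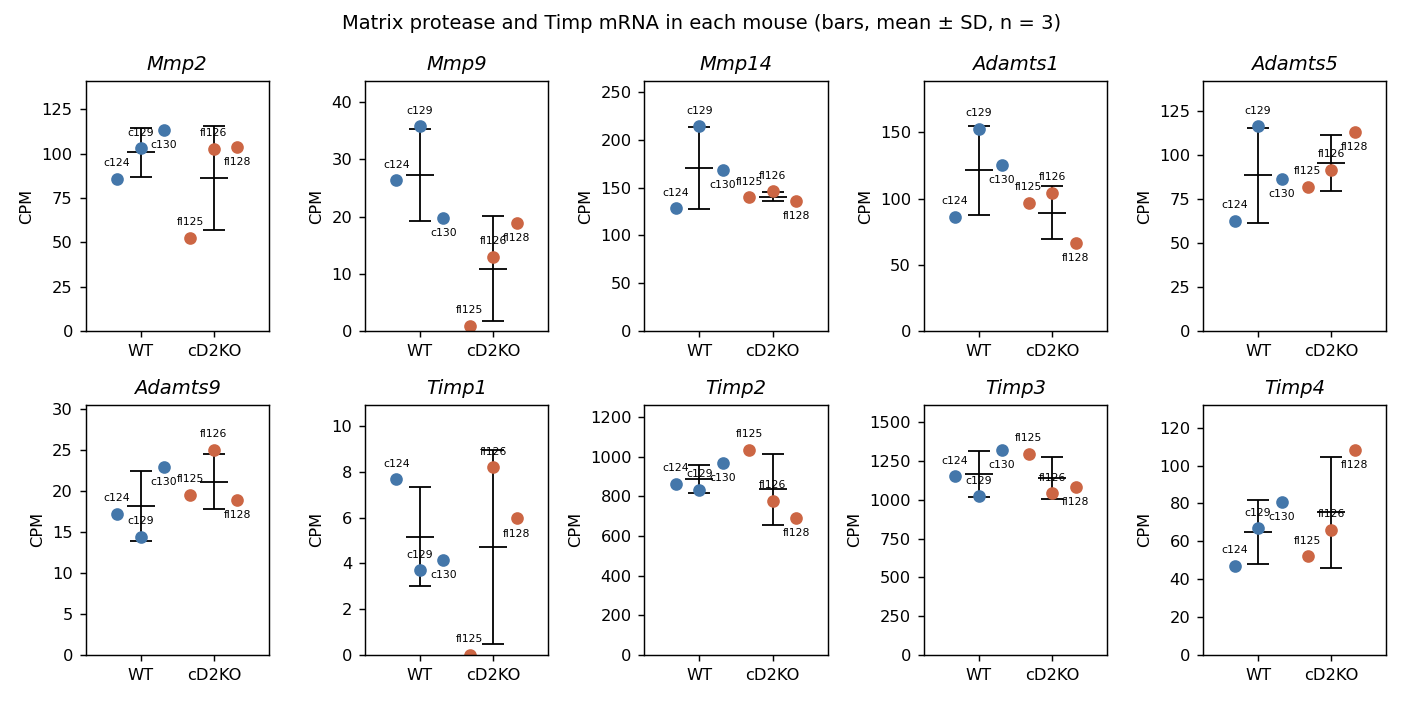
CPM (counts scaled by the TMM library size) of each of the 10 genes in the 3 WT and 3 cD2KO mice, 1 point per mouse, with the mean and SD as bars and a linear axis from 0 in each panel. The WT and cD2KO points overlap in 9 of the 10 panels, and in the Mmp9 panel all 3 cD2KO mice lie below the lowest WT mouse.

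Among the metalloproteases, Mmp2 (ENSMUSG00000031740, mm10 chromosome 8 from 92827291 to 92853420, plus strand) encodes a gelatinase that many stromal cells make. Its level was 85.8, 103 and 113 CPM in WT (c124, c129, c130) and 52.5, 102.6 and 103.6 CPM in cD2KO (fl125, fl126, fl128), an order kept for all values that follow. Only fl125 was low, and the other cD2KO mice lay within the range of the WT mice. Means were 101 ± 13.9 and 86.3 ± 29.2 CPM (SD, n = 3 mice each), and the log2 fold change was -0.22 (SE, its standard error, 0.25, 95% interval -0.76 to 0.33, adjusted p = 0.805 from edgeR's test). Without fl125 the log2 fold change was 0.08. Beside this, 4 of the 10 tested fibroadipogenic markers were lower in cD2KO and 0 higher, 9 of the 10 had a negative log2 fold change, and the summed level of the 11 listed markers was 4535 to 7528 CPM in WT and 2828 to 5802 CPM in cD2KO, lowest in fl125. Without c129 or without c130 the count of lower fibroadipogenic markers was 2. Whether these cells take part in the Mmp2 values was not tested.

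Mmp9 (ENSMUSG00000017737, chromosome 2 from 164940780 to 164955850, plus strand) encodes the gelatinase best known from neutrophils and macrophages. It had 103, 97 and 57 counts in the WT mice and 2, 38 and 60 counts in the cD2KO mice, or 26.4, 35.8 and 19.7 CPM against 0.906, 13.0 and 18.8 CPM. All 3 cD2KO mice were below all 3 WT mice, although fl128 and c130 were nearly level, and the 2 counts of fl125 are under the limit that a count of 0 allows. Means were 27.3 ± 8.08 and 10.9 ± 9.15 CPM (SD, n = 3 mice each). The log2 fold change was -1.28 with a standard error of 0.68, and its 95% interval from -2.82 to 0.27 held cD2KO levels from 0.141 to 1.21 times that of WT (edgeR, unadjusted p = 0.0943, adjusted p = 0.514).

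The p of Mmp9 changed sides with the test. It was 0.0272 with DESeq2's Wald test (log2 fold change -1.27, adjusted p = 0.347) and 0.0387 with limma voom (-1.71, adjusted p = 0.406). In edgeR without a minimum on expression it was 0.00115 (-1.23, adjusted p = 0.0426). There the standard error of Mmp9 was 0.376, against 0.675 with the minimum, and Timp2 and Timp3 both had 0.224. That p therefore rests less on the spread of Mmp9 itself between mice. Single mice moved the value as well, to -1.90 without fl128 (edgeR, unadjusted p = 0.0356) and to -0.73 without fl125 (edgeR, unadjusted p = 0.0555). The direction was negative in all 15 alternatives run.

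The levels of leukocyte markers in the same libraries are given beside Mmp9. All 14 tested macrophage and general leukocyte markers had values below 0, and the median log2 fold change was -1.91. Of these, 3 were lower at an unadjusted p under 0.05, and 13 had groups of mice that did not overlap. The count of lower markers was 14 without fl125, 8 with DESeq2 and 0 without fl128. The summed level of these markers was 3973, 7401 and 4903.5 CPM in WT and 222.8, 2095 and 2351 CPM in cD2KO. The defining marker Cd14 had 0 counts in fl125, and Ptprc, which encodes CD45, had 9 counts there and 25 to 188 counts in the other mice. Both Mmp9 and the sum were highest in c129 and lowest in fl125, but between the WT mice c124 and c130 the order was opposite, with more Mmp9 and a lower sum in c124. Per 1000 CPM of these markers, Mmp9 stood at 6.64, 4.84 and 4.02 CPM in the WT mice and at 4.07, 6.20 and 8.01 CPM in the cD2KO mice, where the groups overlapped. The part of leukocytes in the Mmp9 difference was not tested.

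**Figure D2:**
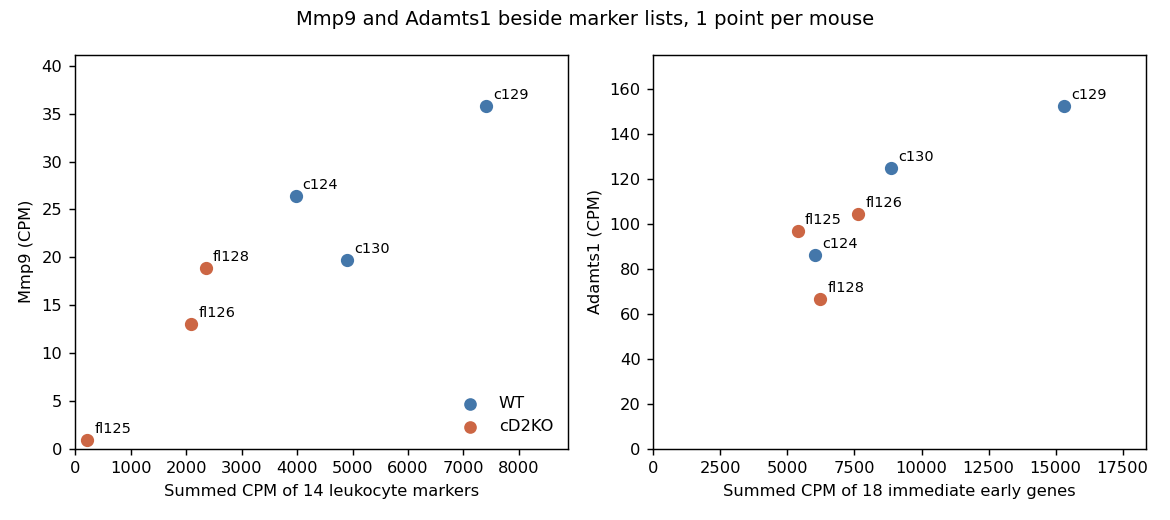
Left, Mmp9 (CPM) against the summed CPM of 14 leukocyte markers; right, Adamts1 (CPM) against the summed CPM of 18 immediate early genes, with 1 point per mouse, colored by group, and linear axes from 0. On the left the cD2KO mouse fl125 lies at 0.906 CPM of Mmp9 and 222.8 CPM of markers and the WT mouse c129 at 35.8 and 7401 CPM, and on the right c129 lies highest on both axes.

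Mmp14 (ENSMUSG00000000957, chromosome 14 from 54431612 to 54445364, plus strand) encodes a membrane-anchored collagenase that activates pro-Mmp2. It was at 128, 214 and 168 CPM in the WT mice and 140, 146 and 136 CPM in the cD2KO mice. The cD2KO mice were close together and lay inside the broad WT range. Means were 170 ± 43.0 and 141 ± 5.07 CPM (SD, n = 3 mice each), with a log2 fold change of -0.27 (SE 0.21, 95% interval -0.73 to 0.18, adjusted p = 0.676 in edgeR). The value was -0.05 without c129 and -0.44 without c124.

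Among the Adamts genes, Adamts1 (ENSMUSG00000022893, chromosome 16 from 85793827 to 85803113, minus strand) and Adamts5 (ENSMUSG00000022894, chromosome 16 from 85856173 to 85901828, minus strand) are neighbors separated by 53059 bases, and both encode proteases that cleave large proteoglycans such as versican and aggrecan. Adamts1 was at 86.0, 152 and 125 CPM in WT and 96.9, 104 and 66.6 CPM in cD2KO. The WT mice c129 and c130 were above all cD2KO mice, whereas c124 was below 2 of them. Means were 121 ± 33.4 and 89.3 ± 20.0 CPM (SD, n = 3 mice each), with a log2 fold change of -0.44 (SE 0.25, 95% interval -0.97 to 0.09, unadjusted p = 0.0955, adjusted p = 0.514 in edgeR). Without c124 the log2 fold change was -0.64 (edgeR, unadjusted p = 0.0254), and without c129 it was -0.22 (edgeR, unadjusted p = 0.406).

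Adamts1 is also an early response gene in several cell types, and its values are therefore given beside a list of dissociation and immediate early genes. Of the 18 genes tested from that list, 9 were lower in cD2KO and 0 higher, with a median log2 fold change of -0.82. The count of lower genes was 14 with DESeq2 or without c124, 3 with limma voom, 4 without fl125, 2 without fl128 and 1 without c129. Their summed level was 6017.5, 15314 and 8874 CPM in the WT mice and 5390, 7647 and 6213.5 CPM in the cD2KO mice, so that c129 was the highest for the list as for Adamts1. Per 1000 CPM of the list, Adamts1 stood at 14.3, 9.96 and 14.1 CPM in WT and at 18.0, 13.6 and 10.7 CPM in cD2KO, and the groups overlapped. The part of the sorting procedure in the Adamts1 values was not tested.

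Adamts5 was at 62.7, 116 and 86.2 CPM in WT and 82.0, 91.7 and 113 CPM in cD2KO. Unlike its neighbor, it had its highest cD2KO value in fl128, the mouse with the lowest Adamts1 value. Means were 88.4 ± 26.8 and 95.5 ± 15.7 CPM (SD, n = 3 mice each), with a log2 fold change of 0.12 (SE 0.24, 95% interval -0.40 to 0.63, adjusted p = 0.907 in edgeR), and the sign turned without c124 and without fl128. The difference between the log2 fold changes of Adamts1 and Adamts5 was not tested.

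Adamts9 (ENSMUSG00000030022, chromosome 6 from 92772699 to 92943492, minus strand) encodes a secreted protease of the same family that acts on versican. It was low, with 67, 39 and 66 counts in WT and 43, 73 and 60 counts in cD2KO, or 17.2, 14.4 and 22.8 CPM against 19.5, 25.0 and 18.8 CPM. The groups overlapped. The log2 fold change was 0.22 (SE 0.31, 95% interval -0.45 to 0.89, adjusted p = 0.853 in edgeR). It overlaps 3 genes on the opposite strand. It shares 1381 exonic bases with A730049H05Rik and 424 with Gm15737, which had 0 to 7 counts per mouse, and 0 with 9530026P05Rik, which had 19 to 42. Reads from the shared bases cannot be told apart without strand, and the use of strand in counting is not given in the sources used here.

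The inhibitors held both the most and the least abundant mRNAs of the 10 by counts. Timp3 (ENSMUSG00000020044, chromosome 10 from 86300372 to 86349506, plus strand) encodes the inhibitor that binds to the matrix and blocks Adamts proteases as well as metalloproteases. It was at 1152, 1022 and 1322 CPM in WT and 1297, 1041 and 1081 CPM in cD2KO, with means of 1165 ± 150 and 1140 ± 138 CPM (SD, n = 3 mice each). The ranges nearly coincided. The log2 fold change was -0.03 (SE 0.20, adjusted p = 0.969 in edgeR), and its 95% interval covered a cD2KO level from 0.726 to 1.32 times that of WT.

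Timp2 (ENSMUSG00000017466, chromosome 11 from 118301069 to 118355740, minus strand), a secreted inhibitor, was at 865, 833 and 968 CPM in WT and 1035, 778 and 692 CPM in cD2KO. The cD2KO mouse fl125 was the highest of all 6 and the other cD2KO mice were the lowest. Means were 889 ± 70.7 and 835 ± 178 CPM (SD, n = 3 mice each), with a log2 fold change of -0.09 (SE 0.21, adjusted p = 0.919 in edgeR) and a 95% interval from 0.689 to 1.28 times the WT level. These 2 genes had over 2200 counts in every mouse, so that depth adds little to the width of their intervals. That width reflects the spread between mice, which the fit estimates partly from other genes.

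Timp4 (ENSMUSG00000030317, chromosome 6 from 115241892 to 115252205, minus strand) encodes the inhibitor with the most restricted tissue range, prominent in heart. It was at 47.1, 66.8 and 80.6 CPM in WT and 52.1, 66.0 and 108 CPM in cD2KO. The groups interleaved and fl128 alone was above the WT range. The log2 fold change was 0.23 (SE 0.28, 95% interval -0.38 to 0.84, adjusted p = 0.823 in edgeR), and it was -0.13 without fl128.

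Timp1 (ENSMUSG00000001131, chromosome X from 20870166 to 20874735, plus strand), the inhibitor that injury and inflammation induce in many tissues, was near the limit of detection. It had 30, 10 and 12 counts in WT and 0, 24 and 19 counts in cD2KO, or 7.68, 3.69 and 4.15 CPM against 0, 8.21 and 5.97 CPM. The count of 0 in fl125 allows a level of up to 1.36 CPM, and the other cD2KO mice lay within or just above the WT range. The log2 fold change was -0.11 (SE 0.83, 95% interval -1.89 to 1.68, adjusted p = 0.974 in edgeR), which covers cD2KO levels from 0.269 to 3.195 times those of WT. No difference in Timp1 could be detected at this depth and spread, and the sign turned without fl125 or c124. With limma voom the log2 fold change was -0.925 (adjusted p = 0.773).

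Timp1, Timp3 and Timp4 each lie within a synapsin gene on the opposite strand, Syn1, Syn3 and Syn2. Syn1 and Syn3 had at most 5 counts in any mouse, and Syn2 had 19 to 51. Timp3 shares 1733 exonic bases with Syn3 and Timp4 shares 90 with Syn2, whereas Timp1 shares 0 with Syn1. Without strand the reads of such pairs cannot be told apart where they overlap. How far this touches Timp3 and Timp4 was not tested.

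**Figure D3:**
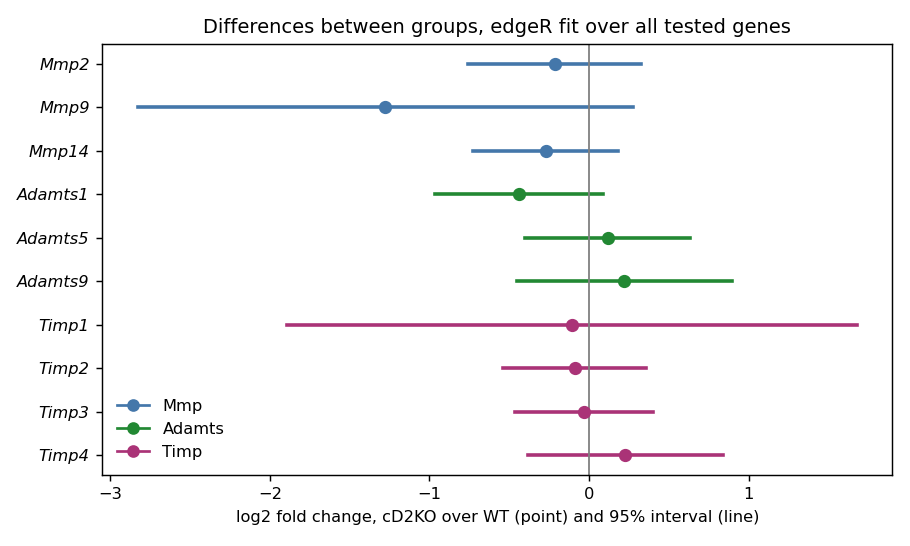
Log2 fold change of cD2KO over WT (points) with its 95% interval (lines) from the edgeR fit, for the 10 genes, colored by family. Every line crosses 0, the narrowest being those of Timp3 and Timp2, and the lines of Timp1 (-1.89 to 1.68) and Mmp9 (-2.82 to 0.27) are the widest.

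Leaving out each mouse in turn showed how far single mice set the direction. The log2 fold changes of Mmp9, Mmp14 and Adamts1 were negative and that of Adamts9 was positive in all 6 fits with a mouse left out. Mmp2, Adamts5, Timp1, Timp2, Timp3 and Timp4 each turned sign in 1 to 3 of these fits. Timp1 and Mmp9 spread the most, Timp1 from -0.72 without fl126 to 0.47 without fl125.

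**Figure D4:**
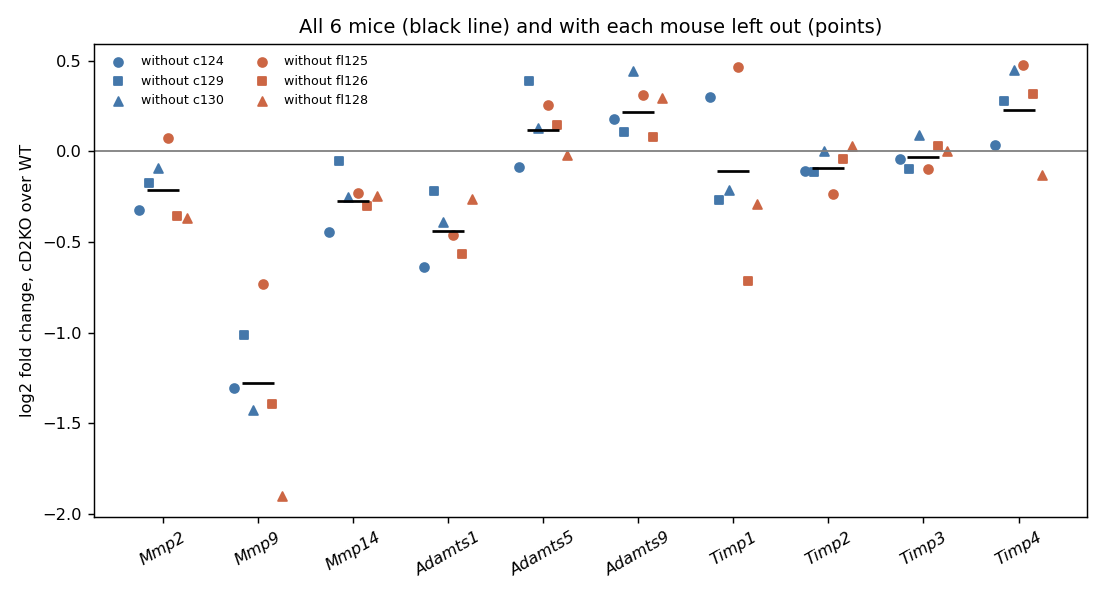
Log2 fold change of cD2KO over WT for each of the 10 genes, with all 6 mice (black line) and with each mouse left out in turn (points, blue for WT and orange for cD2KO). Mmp9 spreads from -1.90 without fl128 to -0.73 without fl125, and the points of 6 genes fall on both sides of 0.

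The shapes of the profiles over the 6 mice were then compared by the root mean square distance between centred log2 CPM. Timp2 and Timp3 were the closest pair of the 10 genes, at a distance of 0.112, followed by Mmp14 and Adamts1 at 0.200, which shared their highest value in c129. Mmp9 and Timp2 were the farthest apart, at 1.60. Over all genes tested, the nearest profiles were those of Mgp for Mmp2 (0.0765), Tbc1d5 for Adamts1 (0.0783), Anpep for Adamts5 (0.0630) and Ltbp4 for Adamts9 (0.0618). For the inhibitors they were Gm20604 for Timp2 (0.0319), Tubb5 for Timp3 (0.0244) and Cyp4f13 for Timp4 (0.0636). Next in rank were Gps2 and Mrps33 for Mmp2, Herc4 and Bcl2 for Adamts1, Bmp2 and Etv6 for Adamts5, Rpia and Decr1 for Adamts9, Rplp0 and Luc7l3 for Timp2, Stk38 and Amz2 for Timp3, and Scand1 and Mlf1 for Timp4. Mmp14 lay close to Scara5 (0.0482) and Cab39 (0.0515). Mmp9 was nearest to Elf4 (0.214), Epsti1 (0.230) and H2-Eb1 (0.266), the last of which encodes a class II antigen presentation chain. Timp1 was nearest to the chemokine gene Cxcl9 (0.308), and Tubb4a was also close (0.358). The distances of Mmp9 and Timp1 were larger, and their own values also spread more, by an SD of 1.63 and 1.38 on the log2 scale over the 6 mice against 0.160 to 0.430 for the other 8 genes. With 6 points per profile these rankings are a description only.

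The sequences before the starts of these genes were read from RefSeq promoters (GRCm38.p6, the assembly of mm10), which gave 250 upstream bases for 7 of the 10 genes, those of Mmp2, Mmp9 and Adamts5 being missing. These windows end at the RefSeq start, and 203 bases of the Timp2 window and 40 of the Timp3 window lie in exons of GENCODE M21, the Timp2 window being wholly inside that gene as annotated there. Of 4 motifs searched on both strands, the AP-1 motif TGANTCA and the thyroid hormone response element core AGGTCA were in 0 of the 7, beside 6.75% and 14.0% of all 32851 promoters of this length. The GC box GGGCGG was in 6 of the 7, Timp2 and Timp3 among them, beside 32.7% of all promoters, and TATAAA, beside 12.4%, was found in Adamts1 with its first base 32 bases before the start. Shown 5′ to 3′ on the strand of each gene, with GC boxes in capitals, are the promoters of Adamts1 (chr16:85803114-85803363, minus strand, 3 GC boxes) and Mmp14 (chr14:54431348-54431597, plus strand, 2 adjacent GC boxes), chosen because their profiles over the mice were the closest among the proteases, and that of Timp4 (chr6:115252206-115252455, minus strand), the one with no GC box.
Adamts1: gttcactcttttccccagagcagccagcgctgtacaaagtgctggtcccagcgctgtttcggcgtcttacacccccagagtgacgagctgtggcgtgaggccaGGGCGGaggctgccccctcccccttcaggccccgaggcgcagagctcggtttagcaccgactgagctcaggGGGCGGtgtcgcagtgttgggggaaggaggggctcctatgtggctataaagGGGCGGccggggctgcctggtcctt
Mmp14: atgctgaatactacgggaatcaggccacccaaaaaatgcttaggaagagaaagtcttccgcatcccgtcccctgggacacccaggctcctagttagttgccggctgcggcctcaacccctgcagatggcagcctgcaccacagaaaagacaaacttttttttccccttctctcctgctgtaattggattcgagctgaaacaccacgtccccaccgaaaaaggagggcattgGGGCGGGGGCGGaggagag
Timp4: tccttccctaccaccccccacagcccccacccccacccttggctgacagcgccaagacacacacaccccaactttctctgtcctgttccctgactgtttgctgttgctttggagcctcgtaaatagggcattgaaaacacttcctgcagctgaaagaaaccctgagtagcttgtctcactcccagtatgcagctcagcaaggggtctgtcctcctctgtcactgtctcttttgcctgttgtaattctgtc
A match of these letters is a description of the window and not a binding site, and their absence says nothing of the factors.

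The rest of the protease system was read from lists of related genes. Of 20 other Mmp genes listed, 13 had a count in any mouse, 5 were tested, 1 was lower and 0 were higher, with a median log2 fold change of -0.11. Mmp19, a broadly expressed secreted metalloprotease, fell from a mean of 9.35 ± 5.08 to 3.58 ± 1.94 CPM (SD over 3 mice in each group). It was at 5.63, 15.1 and 7.27 CPM in WT and at 4.98, 1.37 and 4.40 CPM in cD2KO. All cD2KO mice were below all WT mice, but the log2 fold change of -1.38 (edgeR, unadjusted p = 0.0467, adjusted p = 0.409) lost its call in 6 of 14 alternatives and was -0.83 without c129. Mmp19 had 22, 41 and 21 counts in WT and 11, 4 and 14 counts in cD2KO. It shares 789 exonic bases with Tmem198b on the opposite strand, which had 32, 51 and 20 counts in WT and 14, 25 and 14 in cD2KO. How far this overlap touches Mmp19 was not tested. Mmp11, Mmp15 and Mmp17 had log2 fold changes of 0.50, -0.11 and 0.46 with overlapping groups. The stromelysin and collagenase genes Mmp3, Mmp10 and Mmp13 had at most 3 counts in any mouse.

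Of 24 other Adamts and Adamts-like genes, 14 were tested, 2 were higher and 0 lower, with a median log2 fold change of -0.01. Both of the higher genes encode Adamts-like proteins, which lack the protease domain. Thsd4 (also called Adamtsl6), whose product binds fibrillin microfibrils, rose from 19.2, 15.1 and 24.9 CPM in WT to 42.6, 43.4 and 34.2 CPM in cD2KO, with a log2 fold change of 1.02 (edgeR, unadjusted p = 0.00284, adjusted p = 0.143), and its unadjusted p was under 0.05 in all 15 alternatives. Adamtsl1 rose from 90.6, 76.4 and 107 CPM to 139, 107 and 153 CPM, a log2 fold change of 0.54 (edgeR, unadjusted p = 0.0227, adjusted p = 0.335), which passed in 12 of 15 alternatives. In both genes the cD2KO mice were above the WT mice, though fl126 and c130 were level in Adamtsl1. The proteases Adamts4, Adamts10 and Adamts15 had log2 fold changes of -0.21, 0.41 and 0.30 with overlapping groups.

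Of 15 genes for activators, other inhibitors and clearance of these proteases, 13 were tested, 1 was lower and 0 were higher, with a median of -0.14. The lower gene was Cd44, a hyaluronan receptor that anchors Mmp9 and Mmp14 at the cell surface, which fell from 45.8, 65.7 and 40.8 CPM to 26.3, 30.4 and 24.8 CPM. Its log2 fold change was -0.90 (edgeR, unadjusted p = 0.00401, adjusted p = 0.162), all cD2KO mice were below all WT mice, and it passed in all 15 alternatives. Cd44 is abundant in leukocytes as well, whose markers moved in the same direction, and their part in its change was not tested. Furin, the convertase that activates pro-Mmp14, was level at 143 ± 40.3 and 143.5 ± 11.4 CPM (SD, n = 3 mice each), with a log2 fold change of 0.01 and a 95% interval from -0.48 to 0.49. Lrp1, a receptor that clears proteases and Timp proteins, had a log2 fold change of -0.23, and Reck, a membrane-anchored inhibitor, was low at 3 to 19 counts per mouse.

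Of 11 plasminogen system genes, 7 were tested, 1 was higher and 0 were lower, with a median of -0.24. Serpine2, a serine protease inhibitor, rose from 247, 156 and 187 CPM to 271, 290 and 289 CPM, a log2 fold change of 0.52 (edgeR, unadjusted p = 0.0240, adjusted p = 0.343), with no overlap between the groups and a call in 12 of 15 alternatives. Plau, which encodes urokinase, had all cD2KO mice below all WT mice, at 28.7, 25.1 and 28.7 CPM against 11.3, 22.2 and 20.1 CPM, but did not pass the test (log2 fold change -0.61, edgeR, unadjusted p = 0.0728).

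Among 32 matrix substrates, 28 were tested, 5 were lower and 1 was higher, with a median of -0.325 and 21 negative values. Elastin (Eln) rose from 83.7, 101.9 and 75.45 CPM to 103, 188 and 213 CPM, a log2 fold change of 0.95 (edgeR, unadjusted p = 0.00233, adjusted p = 0.136) that passed in all 15 alternatives. Beside it, 4 of the 10 mural markers, Acta2, Myh11, Tagln and Cnn1, were higher and 0 lower. The other mural markers were not called, with log2 fold changes of 0.003 for Rgs5, -0.06 for Pdgfrb, -0.36 for Kcnj8 and -0.23 for Abcc9. Those of Cspg4 and Higd1b were 0.25 and 0.34. The summed level of the 10 markers was 9388, 5508 and 6869 CPM in WT and 11157, 11979 and 16364 CPM in cD2KO. Acta2 and Myh11 made up most of this sum in every mouse. In cD2KO the sum rose in the same order of mice as Eln. In WT the orders differed, with c129 highest in Eln and lowest in the sum. The part of mural cells in the Eln values was not tested. The lower genes were Col1a2 (-0.84), the proteoglycan genes Lum (-1.105) and Vcan (-1.19), the tenascin gene Tnc (-0.89) and the nidogen gene Nid1 (-0.45), with unadjusted p between 0.00890 and 0.0420 and adjusted p between 0.214 and 0.396 in edgeR. Groups of mice did not overlap in these genes except in Col1a2, where c124 at 567 CPM lay below fl126 and fl128 at 586 and 602 CPM. Nid1 lost its call in 9 of 15 alternatives, Tnc in 7 of 14, Vcan in 3 of 14 (-0.84 without c129), Lum in 2 of 15 (without c129 or c130) and Col1a2 in 1 of 15 (without c130). Vcan, the substrate that Adamts1, Adamts5 and Adamts9 share, was at 9.22, 15.9 and 8.31 CPM in WT and 6.79, 4.10 and 3.77 CPM in cD2KO. Col1a1, Col1a2, Col3a1, Dcn and Lum are also in the list of fibroadipogenic markers. The 4 lower of the 10 tested there were Col1a2, Lum, Smoc2 and Gsn, so that the counts of lower genes in these lists share Col1a2 and Lum. The part of those cells in the substrate values was not tested.

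**Figure D5:**
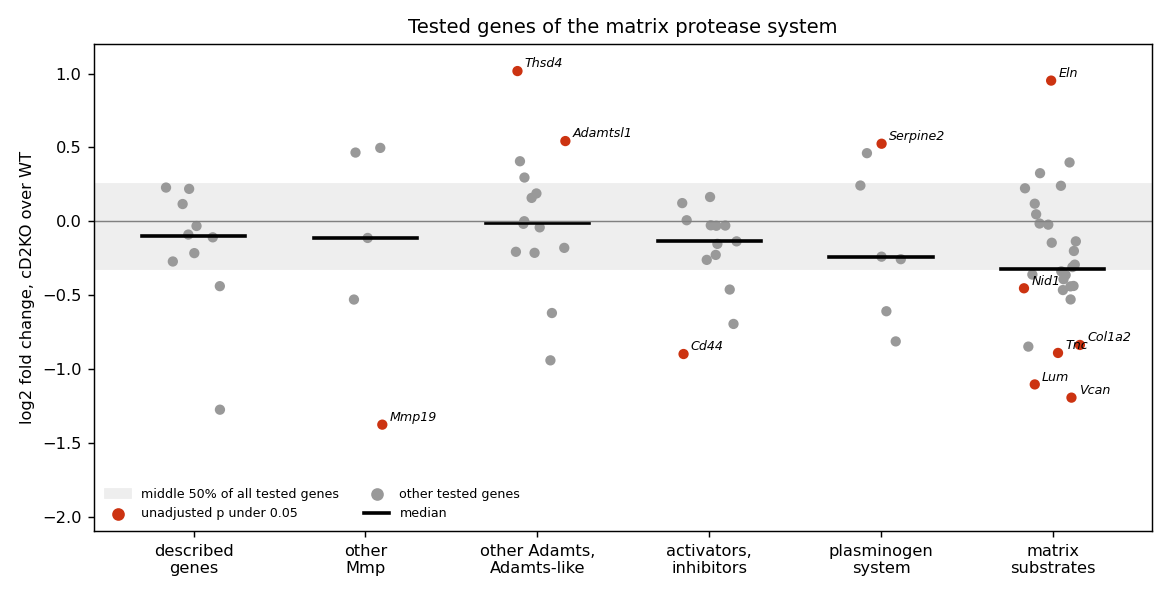
Log2 fold change of cD2KO over WT of each tested gene among the 10 described genes and 5 related lists, with red points for an unadjusted p under 0.05 in edgeR, black lines for the median and a shaded band for the middle 50% of all tested genes (-0.321 to 0.251). None of the 10 described genes is red, whereas 4 genes of the lists are red above 0 and 7 below.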

How the data were processed

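RNA-seq libraries of qMuSCs from 3 WT and 3 cD2KO mice were analysed. The authors deposited a table of raw read counts, whole and not normalized, for each gene and mouse. Per the submitters' processing notes the tools were bcl2fastq, STAR 2.6.0a and HTSeq 0.9.1, with mm10 as the build. The annotation, use of strand, handling of PCR duplicates and placement of reads along transcripts are not given in the sources used here. Symbols and coordinates came from GENCODE M21, in which 30934 of 31053 identifiers were found. Groups were taken from the genotype in the labels. Since nothing but the mouse names tells the libraries apart, p-values measure the spread between these mice, which the fits estimate partly from other genes.

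The expression minimum, which 11633 genes passed, was a mean above 10 of counts normalized with DESeq2. Counts with TMM factors were tested with edgeR 4.0.16 in R 4.3.3 (robust quasi-likelihood, all 6 mice, no covariate), and p-values, 2-sided, were adjusted by Benjamini-Hochberg over these genes. Calls were made at an unadjusted p of 0.05. Profiles used log2 CPM with a prior count of 2. Alternatives were DESeq2 1.42.0, limma 3.58.1 voom, other scaling, other minimums on expression, non-robust estimation and leaving out each mouse. The script was tested on simulated data.

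The 10 genes and all lists were chosen with earlier results of these data known. Besides the 10, list genes with an unadjusted p under 0.05 were named, up to 5 per direction and list, and the 3 genes nearest to each of the 10 in profile, apart from results not reported here. Mmp3, Mmp8, Mmp10, Mmp11, Mmp12, Mmp13, Mmp15, Mmp17, Adamts4, Adamts10, Adamts15, Furin, Lrp1, Reck, Plau, Mpo and Retnlg were chosen after their values were seen. Of the listed names, Mmp1a and Cyr61 were not matched, and Adamtsl6 was matched as Thsd4.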

Additional observations from a re-analysis of the deposited data

How the results depend on the processing

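Depth limits Timp1, with 0 to 30 counts per mouse, and with a minimum mean of 50 it had no value, while limma voom moved it from -0.11 to -0.925. Of the 10 genes, 1 was lower with DESeq2, 1 with limma voom and 1 without a minimum on expression, Mmp9 each time, and 0 to 1 with a mouse left out (Adamts1 without c124, Mmp9 without fl128). The log2 fold changes that turned sign with a mouse left out ranged from -0.37 to 0.076 for Mmp2 (above 0 without fl125), -0.084 to 0.39 for Adamts5 (below 0 without c124 or fl128), -0.72 to 0.47 for Timp1 (above 0 without c124 or fl125), -0.24 to 0.028 for Timp2 (above 0 without fl128), -0.098 to 0.093 for Timp3 (above 0 without c130, fl126 or fl128) and -0.13 to 0.47 for Timp4 (below 0 without fl128). Over all genes, against 621 higher and 770 lower, there were 939 higher without a minimum and 505 lower at a minimum mean of 50. At an adjusted p under 0.05 there were 1 higher and 0 lower, and at 0.1 there were 33 and 57. With each mouse left out, higher genes ranged from 402 (without fl128) to 933 (without fl125) and lower genes from 399 (without c129) to 874. Scaling by total count moved the median of all genes from -0.02 to -0.08 and gave 445 higher and 945 lower. For the 5 related lists, 4 higher and 7 lower genes became 2 to 8 and 2 to 7 with each mouse left out, lowest without c129 in both, with 3 lower without c130 or without fl126 and 8 higher without fl125. For the marker and immediate early lists, 10 higher and 23 lower genes became 8 to 16 and 9 to 32 with each mouse left out, with 16 higher and 9 lower without c129 and 15 lower without c130, while no minimum gave 18 higher and non-robust estimation 39 lower. The cause of these shifts was not tested. No paired analysis was possible because the mouse names share no number between the groups.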

Other observations

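Mmp8, the neutrophil collagenase, was below the minimum on expression, with 1, 40 and 3 counts in WT (c124, c129, c130) and 0, 5 and 3 counts in cD2KO (fl125, fl126, fl128). The high value belonged to c129, which also held 156 counts of the neutrophil gene Retnlg, against 0 to 31 in the other mice. Mmp12, the macrophage elastase, had 5, 2 and 9 counts in WT and 0, 1 and 3 in cD2KO. The neutrophil markers as a list did not move in 1 direction, with 1 of 7 tested genes higher, 0 lower and a median log2 fold change of 0.08. Their summed level was 210, 1012 and 199 CPM in WT and 98.7, 544 and 508 CPM in cD2KO. The higher gene was Mpo, which encodes myeloperoxidase, with 0, 4 and 0 counts in WT and 14, 11 and 35 counts in cD2KO (edgeR, log2 fold change 3.88, unadjusted p = 0.00208, adjusted p = 0.130). Of the 7 tested neutrophil markers, 4 had a positive and 3 a negative log2 fold change. The lowest was that of Retnlg, at -3.23 (edgeR, unadjusted p = 0.0814). Retnlg had 7, 156 and 31 counts in WT and 0, 8 and 13 counts in cD2KO. Mpo had at most 35 counts in any mouse. Whether neutrophils take part in the Mmp9 values was not tested.

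Among the other marker lists, 6 of 11 tested endothelial markers were lower and 0 higher (median log2 fold change -1.24). For mural markers, 4 of 10 were higher and 0 lower (0.30), and 4 of 14 muscle stem cell markers were higher and 0 lower (0.22). These 4 stem cell markers were Myf5, Cdh15, Itga7 and Des. Pax7 was not called (log2 fold change 0.47, edgeR, unadjusted p = 0.172), and 4 of the 14 had a negative log2 fold change. Of the tenocyte, Schwann cell and muscle fiber markers, 0 of 4, 1 lower of 6 and 1 higher of 10 passed, with medians of -0.43, 0.04 and 0.54, and 0 muscle fiber markers passed with upper quartile or total count scaling. The Timp4 value of fl128, the highest of the 6 mice at 108 CPM, came from the mouse with the highest summed levels of mural markers, 16364 CPM, and of muscle fiber markers, 6573 CPM. Acta2 and Myh11, at 7893 and 6092 CPM, made up most of that mural sum. The mural markers Rgs5, Kcnj8 and Abcc9 were instead at their lowest of the 6 mice in fl128, at 840, 84.2 and 107 CPM. Whether any of these are linked was not tested.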
